A study of Solanum tuberosum with 6 samples.

Results

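Starch is laid down in potato tubers as semi-crystalline granules and is broken down again when the tuber sprouts or is stored in the cold. Breakdown begins with dikinases, which attach phosphate to glucose residues at the granule surface and so loosen its packing. Phosphorylases, amylases and debranching enzymes then cut the freed chains, and transferases reshuffle the short chains that are left. The 8 genes described here encode such enzymes. They were chosen by gene ID from a list that names each of them, and 6 of the 8 had a row among the 16091 gene IDs of the expression table. The pairing of ID and enzyme rests on that list. The table holds IDs only, and none of its IDs occurred in the RefSeq list of 32873 potato genes (0 matches), so the names could not be checked and no sequence is shown.

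The material came from potato (Solanum tuberosum) of the cultivar pacific, as seed tubers, which are those set aside to be planted. There were 3 libraries of poly(A)-selected RNA and 3 of bisulfite-treated DNA, whose methylation levels were not analysed here. All 6 samples carry the same tissue and cultivar, and no treatment, time point or second tissue is named, so there is no condition across which the genes could be compared. Expression is given as FPKM (fragments per kilobase of transcript, scaled to the total of mapped fragments) in 1 column that names no library. Each value below is therefore a single number as the authors deposited it, without SD, n or known read depth, and which of the RNA libraries lie behind it is not stated. The labelled tissue could not be checked against marker genes, since the table pairs no ID with a name.

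The genes fell into a very high pair, AMY23 and PHO1a, and a group of lower but still abundant transcripts made up of GWD, PWD, BAM1 and DPE1. The IDs given for PHO2a and ISA3 were not listed. The table ends at 0.500045 FPKM, and its 16250 rows have a median of 12.2 FPKM. No row lay under 0.5 FPKM. This median, and every percentile and share of rows given here, therefore refers to listed rows and not to all potato genes. Each of the 6 listed genes stood above that median. At 100 FPKM or more there were 5 of the 6 listed genes, against 12.3% of all rows. That is 5 of all 8 if PHO2a and ISA3, which have no value, are counted as lower. For ISA3 this is an assumption. Rows whose IDs share its number stood at 105.234 and 88.9254 FPKM, and whether they belong to it was not tested. At 1000 FPKM or more there were 2 of the 6 listed genes, against 1.29% of all rows. These shares describe a table without replicates and were not tested. The genes and levels were chosen with earlier results of these data known, so the shares are no independent evidence that such genes are high.

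**Figure D1:**
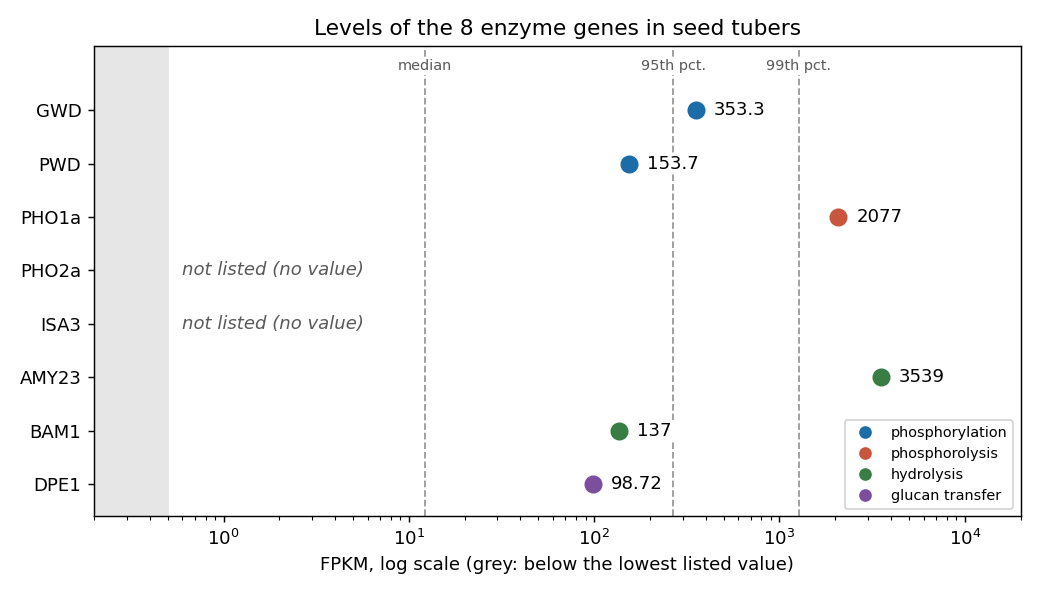
FPKM on a log scale for the 8 enzyme genes, each point being the authors' single value, coloured by role, with dashed lines at the median, 95th and 99th percentiles of all rows and grey shading below the lowest listed value. AMY23 (3539.42 FPKM) and PHO1a (2076.6 FPKM) lie beyond the 99th percentile of 1271 FPKM, GWD lies beyond the 95th of 268 FPKM, and PHO2a and ISA3 have no value.

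The dikinases act first. Glucan water dikinase, GWD (PGSC0003DMG400007677.v4.03), phosphorylates the glucose residues of amylopectin, the branched polymer of starch, and potato plants with little of it accumulate starch that carries less phosphate. It stood at 353.271 FPKM, rank 633 among all rows, with 96.1% of rows below it. Phosphoglucan water dikinase, PWD (PGSC0003DMG400016613.v4.03), is known from Arabidopsis to act on chains that GWD has already phosphorylated. It stood at 153.705 FPKM, rank 1350, with 91.7% of rows below it. GWD was thus 2.30-fold above PWD on the FPKM scale, and 716 rows (4.41% of the table) lay between them. Both dikinases were above the table median, GWD by 29.0-fold and PWD by 12.6-fold.

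Phosphorylases release glucose 1-phosphate from chain ends, using inorganic phosphate. PHO1a (PGSC0003DMG400007782.v4.03), the plastidial form, works in the compartment that holds the starch. It stood at 2076.6 FPKM, rank 98, with 99.4% of rows below it. That was 170-fold above the table median, 5.88-fold above GWD and 13.5-fold above PWD. PHO2a (PGSC0003DMG400028382.v4.03), the cytosolic form, acts on glucans outside the plastid and was not listed. Its transcript may lie anywhere below the lowest listed value, or the ID may be missing for another reason, so no ratio of the plastidial to the cytosolic form was computed. Of the 100 ID numbers within 50 of that of PHO2a, 62 had a row, with a median of 11.2 FPKM. For PHO1a, which is listed, the matching count was 36 of 100, with a median of 10.1 FPKM. Among the listed genes the count ran from 35 (PWD) to 64 (AMY23). Such counts describe other IDs and do not tell why PHO2a has no row, which was not tested.

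The hydrolytic enzymes lay far apart. AMY23 (PGSC0003DMG400009891.v4.03) is an alpha-amylase, an enzyme that cuts inside glucan chains, and in potato it has been placed in the cytosol and linked to the sweetening of cold-stored tubers. It was the highest of the listed genes at 3539.42 FPKM, rank 58, with 99.6% of rows below it. It stood 290-fold above the table median. Only 39 rows separated it from PHO1a, over which it was 1.70-fold higher. BAM1 (PGSC0003DMG400001549.v4.03) is a beta-amylase, which releases maltose from chain ends, and it too has been linked to cold sweetening in potato. It stood at 137.014 FPKM, rank 1492, with 90.8% of rows below it. The alpha-amylase was therefore 25.8-fold above the beta-amylase, with 1433 rows between them.

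ISA3 (PGSC0003DMG400007274.v4.03), an isoamylase that removes short branches during starch breakdown, was not listed under that ID. Another pair of IDs with the same number, 7274, was listed in adjacent rows, differing from it only in the digit before the number. PGSC0003DMG402007274.v4.03, with the digit 2, stood at 105.234 FPKM, rank 1898, with 88.3% of rows below it. PGSC0003DMG401007274.v4.03, with the digit 1, stood at 88.9254 FPKM, rank 2175, with 86.6% of rows below it. Their values differed 1.18-fold. Their sum was 194 FPKM, which should not be read as the level of 1 gene, since FPKM divides by length. In the table as a whole, 1359 numbers occurred with a digit of 1 or more, and 0 of these also occurred with the digit 0. The ISA3 ID has the digit 0, and the sources used here do not say what the digit stands for. Whether these rows belong to the ISA3 gene was not tested, and they are counted with no list.

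Among the 669 numbers with a single row for each of the digits 1 and 2, the 2 values differed by a median of 3.02-fold. Of these pairs, 67 were as close as the pair numbered 7274 or closer. Closeness of this kind does not tell whether a pair belongs to 1 gene. The 50 numbers on either side of 7274 were listed for 50 of 100, with a median of 9.14 FPKM. Both rows numbered 7274 lay near DPE1 in level. They also lay above the median of 9.14 FPKM, which was itself below the 12.2 FPKM of all rows.

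DPE1 (PGSC0003DMG400016589.v4.03), the plastidial disproportionating enzyme, moves glucan units between short chains, so that maltotriose left over by other enzymes can be used again. At 98.7173 FPKM it was the lowest of the listed genes, rank 2009, with 87.6% of rows below it. It was still 8.10-fold above the table median. AMY23 exceeded it 35.9-fold, the widest ratio among the 6 listed genes.

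From high to low the order was AMY23, PHO1a, GWD, PWD, BAM1 and DPE1. The steps between neighbours in this order were 1.70-fold, 5.88-fold, 2.30-fold, 1.12-fold and 1.39-fold. The largest step separated PHO1a from GWD, with 534 rows between them. PWD, BAM1 and DPE1 lay within 1.56-fold of each other, in a band from 98.7173 to 153.705 FPKM that held 660 rows, 4.06% of the table. Without replicates there is no spread against which any step could be set. The error in the order of close neighbours such as PWD and BAM1, with 141 rows between them, is therefore unknown.

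**Figure D2:**
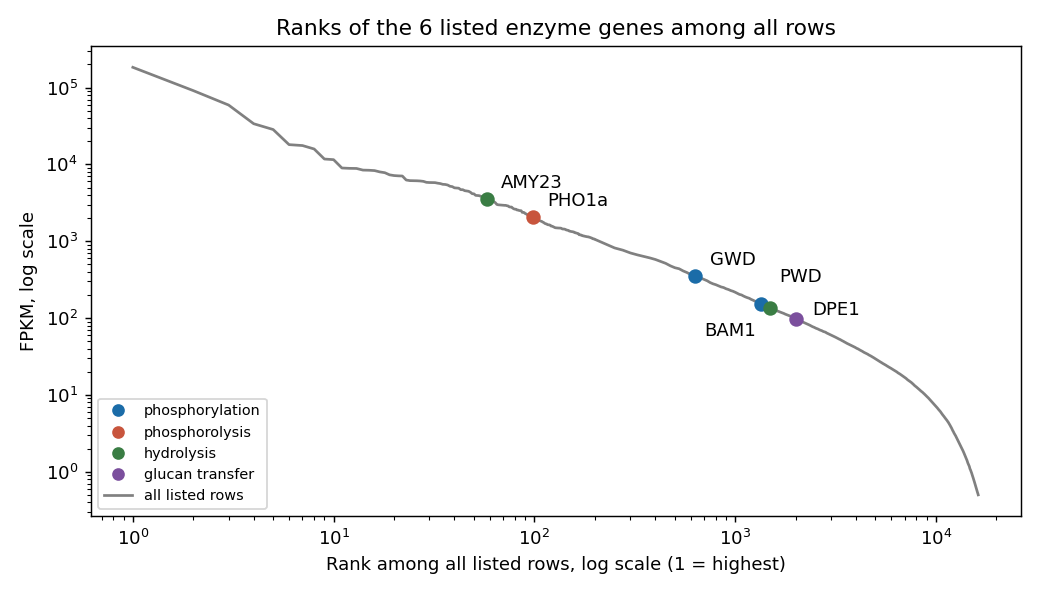
FPKM of all listed rows against their rank, both on log scales, as a grey line, with the 6 listed enzyme genes as points coloured by role. AMY23 at rank 58 and PHO1a at rank 98 sit close together near the top, GWD follows at rank 633, and PWD, BAM1 and DPE1 lie together between ranks 1350 and 2009.

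Summed, the listed genes reached 6359 FPKM, which was 0.363% of the summed FPKM of the table, from 0.0369% of its rows. AMY23 made up 55.7% of that sum and PHO1a 32.7%, so that these genes together held 88.3%. GWD followed with 5.56%, PWD with 2.42%, BAM1 with 2.15% and DPE1 with 1.55%. By role, with ISA3 and PHO2a not listed, hydrolysis reached 3676 FPKM (AMY23 and BAM1) and phosphorolysis 2077 FPKM (PHO1a alone). Phosphorylation reached 507 FPKM and glucan transfer 98.7 FPKM. As FPKM divides by length, these are shares of transcripts and not of reads, and a level of transcript says nothing of the activity of the enzyme.

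The median of the 6 listed genes was 253 FPKM, against 12.2 FPKM for all rows. On the log2(FPKM + 1) scale the difference of medians was 4.15. With PHO2a and ISA3 placed below the lowest listed value, the median of all 8 genes was 145 FPKM. That placement is an assumption, since neither gene has a value. Rows with the ID number of ISA3 stood at 105.234 and 88.9254 FPKM, and whether they belong to it was not tested. The medians of the 6 and of the 8 genes rest on a list of well-known enzymes and were not tested.

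The surroundings of each gene in the table were also described, using the 10 rows before and the 10 rows after it in the deposited order. The files do not say what that order is. AMY23 and GWD were the highest of their 21 rows. Of all rows at 100 FPKM or more with 10 rows on each side, 36.1% were likewise the highest of theirs, a share close to the 2 of 5 found for the enzyme genes at that level. The rows around AMY23 had a median of 17.1 FPKM and reached 1966 FPKM, 1.80-fold below AMY23 itself. Those around GWD had a median of 7.14 FPKM and reached 117 FPKM, 3.01-fold below GWD.

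PHO1a and DPE1 each had 1 higher row around them. For PHO1a it stood at 3673 FPKM, among rows with a median of 26.1 FPKM. For DPE1 it stood at 1185 FPKM, among rows with a median of 9.41 FPKM. PWD had 3 higher rows, 1 of which, at 479 FPKM, came directly before it, while the row directly after it stood at 1.13 FPKM. BAM1 had 4 higher rows, up to 767 FPKM. The levels of the enzyme genes were 7.47-fold (BAM1) to 207-fold (AMY23) above the medians of the rows around them. Against the median of all rows these 2 genes stood 11.2-fold and 290-fold higher. Folds over surrounding rows were not computed for other genes of like level, so they add no separate result. Which genes were the highest of their rows changed with the number of rows taken. With 5 rows on each side DPE1 was also the highest of its rows, and with 25 on each side AMY23 alone was, since GWD and DPE1 each had 2 higher rows. PHO1a then stood 152-fold above the median of the rows around it, against 79.6-fold with 10 on each side. The share of all rows that were the highest of theirs was computed only for 10 rows on each side. It covered rows at 100 FPKM or more, which leaves out DPE1. The counts with 5 and 25 rows on each side therefore have no background to be set against.

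**Figure D3:**
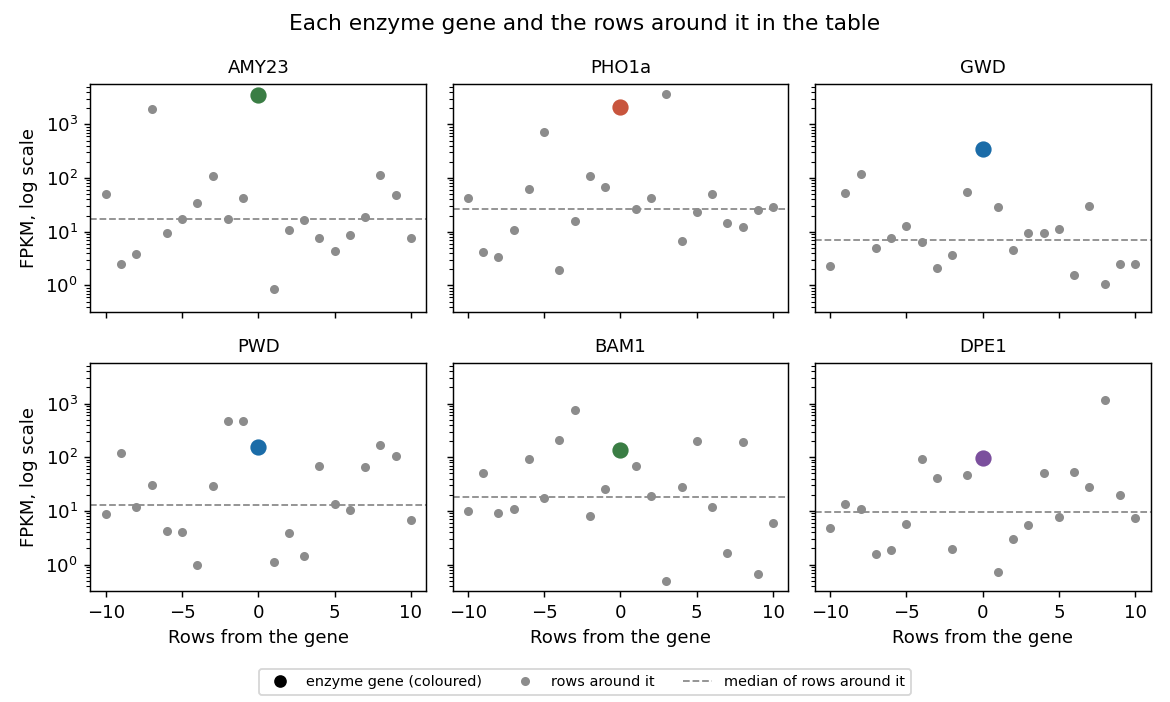
FPKM on a log scale for each listed enzyme gene (large coloured point) and the 10 rows before and after it in the table (grey points), with the median of those rows as a dashed line. AMY23 and GWD lie above every row around them, whereas 1 row is higher around PHO1a and around DPE1, 3 around PWD and 4 around BAM1.

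Each listed gene had a single row, whereas 153 of the IDs in the table have several. None of the 6 shared its FPKM with another row (0 of 6). Of all rows, 11.6% share their value with another, and among rows at 100 FPKM or more 2.51% do. No gene was named for a pattern like that of an enzyme, since 1 value per row holds no pattern.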

How the data were processed

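Paired-end reads of 150 bp were obtained from 3 RNA libraries of seed tubers, as the labels' protocols say. An aligner of spliced reads, TopHat2 2.1.0, is named in the submitters' processing notes. The annotation, the genome build and the program behind the expression values are not stated there. The FPKM values were used as deposited by the authors, 1 per row, and read depth is unknown. Whether the column is a mean, a pool or a single library is not stated.

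The 8 genes were matched by their whole ID, and rows of 1 ID were to be summed. The members, lists and levels were chosen with earlier results of these data known. All members are named. Rank 1 is the highest row, and the percentage of rows below a gene counts strictly lower values. No test was made, as no replicate values exist. Log2 values used a pseudocount of 1. The planned list of other pathway genes was not run, since names could not be matched. The calculations were tested on simulated data. Python 3.11.15, NumPy 2.4.6, pandas 2.3.3 and Matplotlib 3.10.9 were used.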

Additional observations from a re-analysis of the deposited data

How the results depend on the processing

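The alternatives that leave out AMY23 or PHO1a, place the unlisted genes below the lowest row or leave the enzyme genes out of the rows they are set against were chosen after seeing the data, as were other widths of the rows around each gene. The summed level of the listed genes, 6359 FPKM, could not change with the highest row of each ID, since each of these genes has a single row. Their median percentile, 93.9, was 93.8 against IDs with rows summed, 93.4 against rows at 1 FPKM or more, 91.1 against rows at 5 FPKM or more and 93.2 against rows with an FPKM of their own. The share of the summed FPKM, 0.363%, was 0.406% without the highest gene of the table, 0.161% without AMY23 and 0.245% without PHO1a. The difference of medians on the log2 scale, 4.15, was 4.25 with a pseudocount of 0.1, 4.26 with 0.01, 3.90 against rows at 1 FPKM or more and 4.15 against rows of no enzyme gene. It was 3.55 without the highest listed gene and 4.75 without the lowest. With the unlisted genes placed below the lowest row, an assumed position, it was 3.47. The number of genes at or above the level, 5 at 100 FPKM, was 6 at 1, 10 or 50 FPKM and 3 at 200 FPKM, against 92.3%, 54.5%, 21.2% and 6.64% of all rows at these 4 levels. The phosphorylase ratio and its alternatives were not run, because PHO2a is not listed. No paired analysis was possible because the expression column carries no replicate number, and for the same reason no library could be left out. No limit set by depth was computed, because read counts are unknown.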
